A study of Mus musculus with 28 samples.

Results

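The circadian clock genes Arntl (also called Bmal1), Clock, Per1, Per2, Per3, Nr1d1 and Ciart and the output genes Dbp, Tef and Hlf, which encode the PAR bZip transcription factors, were read out by gene symbol in the raw-count tables of mouse duodenum and kidney cortex. All 10 genes were listed in both tables, among 31179 symbols for duodenum and 30227 for kidney, and all 10 passed the filter on low counts in both tissues. The libraries came from 8-week-old female mice fed the TD.96348 rescue diet, which all groups shared. Each tissue had 6 wild-type libraries (Vdr+/+, written WT), 4 libraries of mice lacking the vitamin D receptor gene Vdr (Vdr-/-, written KO; the file header adds "demay") and 4 libraries of mice with the Vdr delta AF2 allele (written AF2). The AF2 region is the part of a nuclear receptor that binds coactivators. The labels give no floxed allele and no Cre, and they give neither the hour of day at which tissue was taken nor the feeding state. Whether the libraries of a group came from separate animals is not stated, so p-values measure the spread between these samples.

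The mammalian clock is a feedback loop of transcription. Arntl and Clock proteins pair on E-box sites and switch on the Per and Cry genes, Nr1d1, Ciart and Dbp; Per, Cry and Ciart proteins then shut that activity down. Nr1d1 and its relative Nr1d2 repress genes with ROR elements, Arntl, Cry1 and Nfil3 among them, so that Arntl peaks when Nr1d1 is at its trough. Dbp, Tef and Hlf activate D-box genes, Per3 among them. In peripheral organs such as gut and kidney the peaks follow a fixed order, with Nr1d1 first, then Dbp, Per3 and Per1, then Per2, and later Cry1 and Arntl, while Clock mRNA swings little. Because of that order, a set of these genes read from a single time point carries information on the hour of the clock as well as on its state.

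Promoter windows from RefSeq (GRCm38.p6, 250 bases before to 50 bases after a start site) were found for 9 of the 10 genes, with 14 windows in all; Per2 had none. The 5 motifs searched on both strands were the E-box CACGTG, the E-prime box CACGTT, the D-box TTATGTAA, the ROR element core TAGGTCA and the cAMP response element TGACGTCA. No match overlapped another. The windows of Arntl, Nr1d1, Per3 and Ciart are shown because they hold the motifs of the 3 regulatory arms described above; capitals mark the motif, and the Nr1d1 motif reads CACGTT on the opposite strand.
Arntl: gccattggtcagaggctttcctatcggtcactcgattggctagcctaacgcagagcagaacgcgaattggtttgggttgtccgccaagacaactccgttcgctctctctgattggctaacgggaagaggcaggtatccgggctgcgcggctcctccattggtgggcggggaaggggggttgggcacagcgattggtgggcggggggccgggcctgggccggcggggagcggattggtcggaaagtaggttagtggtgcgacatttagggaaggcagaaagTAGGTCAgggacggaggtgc
Nr1d1: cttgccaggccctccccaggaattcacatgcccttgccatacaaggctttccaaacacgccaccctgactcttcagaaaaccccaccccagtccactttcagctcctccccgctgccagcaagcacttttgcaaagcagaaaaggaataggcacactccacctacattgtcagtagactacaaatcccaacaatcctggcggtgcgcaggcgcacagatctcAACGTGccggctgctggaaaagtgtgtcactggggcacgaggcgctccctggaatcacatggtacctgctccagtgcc
Per3: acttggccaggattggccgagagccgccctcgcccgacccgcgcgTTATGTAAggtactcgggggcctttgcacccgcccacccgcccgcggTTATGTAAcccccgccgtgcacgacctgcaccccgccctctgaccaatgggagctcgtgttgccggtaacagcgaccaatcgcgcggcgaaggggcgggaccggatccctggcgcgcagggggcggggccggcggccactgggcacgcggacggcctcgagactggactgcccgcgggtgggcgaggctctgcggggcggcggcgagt
Ciart: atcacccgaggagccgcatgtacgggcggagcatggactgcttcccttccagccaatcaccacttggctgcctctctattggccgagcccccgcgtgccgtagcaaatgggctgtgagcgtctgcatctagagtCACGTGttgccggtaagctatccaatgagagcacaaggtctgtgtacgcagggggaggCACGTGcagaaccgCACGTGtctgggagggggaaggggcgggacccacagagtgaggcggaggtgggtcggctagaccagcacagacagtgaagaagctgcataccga
The Arntl window lies at chr7:113207261-113207560 on the plus strand. The other windows lie on the minus strand, at chr11:98775328-98775627 for Nr1d1, chr4:151044616-151044915 for Per3 and chr3:95882179-95882478 for Ciart. The Ciart window held 3 E-boxes, and Per1 and Tef windows also held an E-box, a motif found in 7.15% of all 32817 windows. The Per3 window held 2 D-boxes, a motif found in 0.935% of windows. The single ROR core of the Arntl window started at base 31 after the start site (2.61% of windows), and the E-prime box of Nr1d1 started 28 bases before it (4.69% of windows). The Hlf window held a cAMP response element (1.79% of windows), and the windows of Clock and Dbp held none of the 5 motifs. These matches describe letters in a window and are not binding sites.

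Deposited counts summed to between 3713352 and 25181916 per library in duodenum and between 3725648 and 6492228 in kidney, and every count was even, as if each read had been counted 2 times. Levels below are CPM (counts scaled to a common library size) after TMM normalization. Vdr, the targeted gene, had 267 to 646 CPM in WT duodenum, 97.3 to 120 in KO and 362 to 432 in AF2, and 177 to 212, 7.94 to 22.1 and 64.8 to 91.9 CPM in kidney; where the 3′ reads lie relative to the deleted part is not given in the sources used here. The library codes fall into 3 runs of consecutive numbers in each tissue, the first with WT 1 and WT 2, the second with WT 3, WT 4 and all KO libraries, and the third with WT 5, WT 6 and all AF2 libraries. What a run stands for is not stated, so KO and AF2 were each also compared with WT within runs. AF2 and KO share no run and cannot be compared within one. In duodenum the 8 enterocyte markers summed to 12610 to 25853 CPM in WT, 11939 to 16357 in KO and 12690 to 18044 in AF2, and the 6 Paneth cell markers to 3284 to 4979, 3835 to 7691 and 3205 to 7019 CPM. Of the Paneth markers 5 had a higher mean than WT and 1 (Reg3g) a lower one, in KO and in AF2. The 6 smooth muscle markers summed to 394 to 627 CPM in WT, 444 to 573 in KO and 589 to 774 in AF2. All AF2 sums were above all KO sums, and all 6 markers had a higher mean in AF2 than in KO. In kidney the 6 proximal tubule markers summed to 14030 to 18462, 13659 to 16372 and 10753 to 14979 CPM. The 5 distal tubule markers summed to 3418 to 4194, 4306 to 5031 and 4610 to 5293 CPM, a sum higher in all KO and AF2 than in all WT libraries. The single distal markers were split, with fold changes over WT of 4 higher and 1 lower in KO and 3 higher and 2 lower in AF2. Kidney had the enterocyte markers Alpi, Sis and Fabp2 and the pancreas markers Prss2 and Ctrb1 at 0 counts. Exocrine pancreas markers summed to anywhere between 37.1 and 13233 CPM in duodenum libraries. The part of cell make-up in the clock gene levels was not tested, and fewer cells of a type cannot be told apart from less RNA per cell.

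A pair of KO libraries of each tissue stood apart from the other 12 in the clock genes, and the same 2 numbers did so in both tissues. KO 3 and KO 4 were above every other library for Arntl and below every other library for Nr1d1 and Dbp, in duodenum and in kidney. In duodenum they were also below the rest for Per3, and in kidney above the rest for Clock. The comparisons of KO are also given below with both left out, an alternative chosen after seeing the data. That fit keeps only KO 1 and KO 2 of each tissue. The pair was picked for extreme values, so a smaller difference in Arntl, Nr1d1 and Dbp followed from the choice. With so few KO libraries, a call lost in that fit does not show that the pair carried the difference.

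Arntl (chromosome 7, 113207465 to 113314126, plus strand) encodes the activator that pairs with Clock. In duodenum it ranged from 6.94 to 16.4 CPM over the 6 WT libraries, with a median of 11.8. KO 1 to KO 4 had 15.9, 18.2, 33.3 and 49.7 CPM, and AF2 1 to AF2 4 had 7.42, 8.45, 11.7 and 10.4. All 4 KO libraries lay above the WT median and 3 of them above the whole WT range, whereas AF2 lay inside it. The KO mean was 29.3 ± 15.7 (SD, n = 4) against 11.7 ± 3.37 (SD, n = 6) in WT, a log2 fold change of 1.34 ± 0.28 (SE). It missed the threshold of 0.05 after Benjamini-Hochberg adjustment over 13302 genes (edgeR quasi-likelihood test, adjusted p = 0.0755), at rank 13. It passed without WT 4, without KO 1 or without KO 2. Without KO 3 and KO 4 the log2 fold change was 0.55 (adjusted p = 0.669), and against WT 3 and WT 4 of the same code run it was 1.55 (adjusted p = 0.673).

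In kidney Arntl gave few reads. WT 1 had none, which allows up to 1.30 CPM (3 reads, counting error only), and the other WT libraries had 1.42 to 3.92 CPM. KO 1 to KO 4 had 3.09, 3.70, 6.20 and 12.9 CPM and AF2 1 to AF2 4 had 5.04, 3.74, 4.20 and 4.01. KO 3 and KO 4 exceeded all other kidney libraries, while KO 1 and KO 2 lay within the WT range. The log2 fold change of KO over WT was 1.81 ± 0.49 (SE; edgeR, adjusted p = 0.0739) and fell to 0.87 without KO 3 and KO 4 (adjusted p = 0.899). AF2 over WT was 1.19 ± 0.51 (adjusted p = 0.25), and 0.43 against WT 5 and WT 6 alone.

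Clock (chromosome 5, 76209868 to 76304792, minus strand), the partner of Arntl, was near level in duodenum: 77.5 to 98.5 CPM in WT, 95.8 to 107 in KO and 71.4 to 106 in AF2, with fold changes of 0.15 ± 0.12 and -0.01 ± 0.12 on the log2 scale. In kidney WT libraries had 44.4 to 58.8 CPM, KO 1 to KO 4 had 56.1, 72.4, 79.7 and 82.1, and AF2 libraries 48.7 to 66.6. KO 2, KO 3 and KO 4 lay above the WT range. Clock rose in kidney KO by 0.53 ± 0.127 on the log2 scale (edgeR, adjusted p = 0.0361, n = 4 and 6). The call was lost without KO 3 and KO 4 (0.35, adjusted p = 0.776) and within the code run (0.60, adjusted p = 0.296).

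Nr1d1 (chromosome 11, 98767932 to 98775333, minus strand), which encodes the repressor REV-ERB alpha, showed the widest gap among the KO libraries. In duodenum WT had 43.2 to 77.8 CPM (median 58.7) and AF2 59.7 to 74.3, while KO 1 to KO 4 had 52.7, 35.5, 6.40 and 7.30 CPM, from 103, 70, 15 and 16 reads. In kidney WT had 32.1 to 50.5 CPM and AF2 29.9 to 45.3, while KO 1 to KO 4 had 45.3, 29.2, 4.13 and 1.13 CPM, from 88, 71, 14 and 3 reads. KO 1 and KO 2 were at or just under the levels of WT, and KO 3 and KO 4 were far below every library of either other genotype. With that spread the KO fold changes, -1.23 ± 0.503 in duodenum (adjusted p = 0.383) and -1.01 ± 0.643 in kidney (adjusted p = 0.642), did not pass. They were -0.43 and -0.06 without KO 3 and KO 4. Thra, on the opposite strand, overlaps the 3′ end of Nr1d1. Strand use is not given in the sources used here, so how reads of the overlap were assigned is not known. Thra had 127.9 to 190.9 CPM over all duodenum libraries, with 157 and 139 in KO 3 and KO 4. In kidney KO 3 and KO 4 it had 72.6 and 70.3 CPM, within the 45.4 to 129 of the others.

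Per1 (chromosome 11, 69095217 to 69109960, plus strand) and Per2 (chromosome 1, 91415982 to 91459324, minus strand) encode the classic inhibitors of the loop. Per1 in duodenum had 3.67 to 22.2 CPM in WT, 5.63, 11.7, 8.11 and 9.13 in KO 1 to KO 4, and 15.8, 15.2, 16.9 and 6.93 in AF2 1 to AF2 4. In kidney it had 6.72 to 26.0 CPM in WT, 8.24, 12.3, 21.8 and 16.6 in KO, and 18.2, 29.0, 30.6 and 13.1 in AF2. The 3 genotypes overlapped in both tissues, and no Per1 difference passed the test (KO over WT -0.62 ± 0.435 and 0.02 ± 0.354). Per2 had 24.0 to 101 CPM in WT duodenum, 28.7, 29.4, 87.5 and 51.6 in KO 1 to KO 4, and 56.9, 40.2, 51.9 and 23.8 in AF2. In kidney it had 13.4 to 44.8 CPM in WT, 12.9, 15.6, 28.9 and 28.4 in KO, and 40.3, 23.8, 27.7 and 13.1 in AF2. Here KO 3 and KO 4 were the higher pair within KO, in both tissues, the reverse of their order in Dbp. Per2 fold changes of KO over WT were -0.32 ± 0.418 and -0.46 ± 0.363, and -1.09 and -1.07 without KO 3 and KO 4, with adjusted p-values of 0.609 and 0.761.

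Per3 (chromosome 4, 151003652 to 151044665, minus strand), a Per gene that tracks the PAR bZip factors, had 25.04 to 58.6 CPM in WT duodenum, 45.5, 32.4, 21.3 and 10.5 in KO 1 to KO 4, and 68.2, 50.4, 43.3 and 35.7 in AF2. In kidney it had 38.1 to 82.0 CPM in WT, 46.3, 36.2, 42.8 and 20.4 in KO, and 48.5 to 61.0 in AF2. KO 4 was the lowest of all 14 libraries in both tissues. The kidney difference of KO from WT, -0.78 ± 0.201 on the log2 scale, missed the threshold (edgeR, adjusted p = 0.0729), as did the duodenum one, -0.64 ± 0.372. Per3 lies inside the gene Camta1 on the same strand, which could share its reads.

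Ciart (chromosome 3, 95878503 to 95882251, minus strand), which encodes the Arntl-Clock repressor CHRONO, was expressed at low levels and was lowest in KO. In duodenum WT had 0.668 to 4.98 CPM, KO 1 and KO 4 had 2.56 and 1.37, and AF2 1.49 to 4.76. KO 2 and KO 3 had no read, which allows up to 1.52 and 1.28 CPM. In kidney WT had 2.80 to 10.8 CPM (median 4.77), KO 1 to KO 4 had 2.06, 0.412, 0.885 and 0.378, from 4, 1, 3 and 1 reads, and AF2 had 1.40 to 5.46. All 4 kidney KO libraries lay below all 6 WT libraries. In kidney KO, Ciart fell by 2.62 ± 0.539 on the log2 scale (edgeR, adjusted p = 0.0112), and the duodenum value was -1.75 ± 0.718 (adjusted p = 0.349). Without KO 3 and KO 4 the kidney value was -2.23 (adjusted p = 0.434), and within the code run it was -2.21 (adjusted p = 0.263). The gene C920021L13Rik overlaps the whole of Ciart on the opposite strand.

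Dbp (chromosome 7, 45705088 to 45710203, plus strand), the PAR bZip factor with the deepest daily swing, had 25.4 to 82.5 CPM in WT duodenum, with a median of 63.5. KO 1 to KO 4 had 27.6, 18.8, 11.9 and 4.56 CPM, and AF2 1 to AF2 4 had 72.7, 41.9, 57.1 and 48.5. In kidney WT had 74.5 to 152 CPM (median 122), KO 1 to KO 4 had 95.8, 28.4, 23.3 and 16.3, and AF2 had 136, 97.2, 123 and 52.8. KO 2, KO 3 and KO 4 lay below every WT library in both tissues, and KO 1 lay within the WT range. The means were 15.7 ± 9.83 in KO (SD, n = 4) and 58.6 ± 22.4 in WT (SD, n = 6) in duodenum, and 40.9 ± 36.9 and 119 ± 25.7 in kidney. The log2 fold changes were -1.91 ± 0.456 (edgeR, adjusted p = 0.175) and -1.57 ± 0.474 (adjusted p = 0.206), and neither passed. They were -1.34 and -0.95 without KO 3 and KO 4, and within the code run -2.15 and -1.61. Sphk2 overlaps the 3′ end of Dbp on the opposite strand, and how reads of that overlap were assigned is not known either. Sphk2 had 102 and 87.6 CPM in duodenum KO 3 and KO 4, below the lowest of the other libraries (103), and 33.6 and 34.0 CPM in kidney, within the 19.9 to 56.1 of the others.

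Tef (chromosome 15, 81802421 to 81826863, plus strand, 16.0 Mb from Vdr on the same chromosome) and Hlf (chromosome 11, 90336536 to 90390895, minus strand) are the other two PAR bZip genes. Tef in duodenum had 57.1 to 131 CPM in WT, 82.9, 83.1, 78.5 and 47.0 in KO 1 to KO 4, and 107, 107, 122 and 83.2 in AF2. In kidney it had 270 to 348 CPM in WT, 267, 215, 244 and 155 in KO, and 345, 327, 413 and 363 in AF2. Every kidney KO library was below every WT and every AF2 library. Kidney Tef of KO fell by 0.49 ± 0.122 on the log2 scale against WT (edgeR, adjusted p = 0.0446) and was higher in AF2 than in KO by 0.72 ± 0.132 (adjusted p = 0.00847). Both calls were lost without KO 3 and KO 4 (-0.37, adjusted p = 0.625, and 0.58, adjusted p = 0.151). They were also lost with code run as a block (-0.62, adjusted p = 0.164, and 0.94, adjusted p = 0.613). The last value compares AF2 and KO only through the WT libraries of their runs. Whether the position of Tef on the chromosome of the altered gene bears on this was not tested.

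Hlf in kidney gave 159 to 225 CPM in WT (median 176), 152, 141, 151 and 127 in KO 1 to KO 4, and 148, 97.2, 130 and 90.3 in AF2 1 to AF2 4. Both mutant groups lay wholly below WT. Kidney Hlf of AF2 fell by 0.65 ± 0.128 on the log2 scale (edgeR, adjusted p = 0.00221), a call kept when any 1 library was left out, and within the third code run the value was -0.63 (adjusted p = 0.0673). The KO value was -0.35 ± 0.126 (adjusted p = 0.226), and the 4 KO libraries differed little among themselves. In duodenum Hlf had 11.4 to 55.9 CPM in WT, 21.0, 12.2, 20.9 and 11.9 in KO, and 18.3 to 33.6 in AF2, with overlapping groups and no call (-0.91 ± 0.413 and -0.31 ± 0.396).

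**Figure D1:**
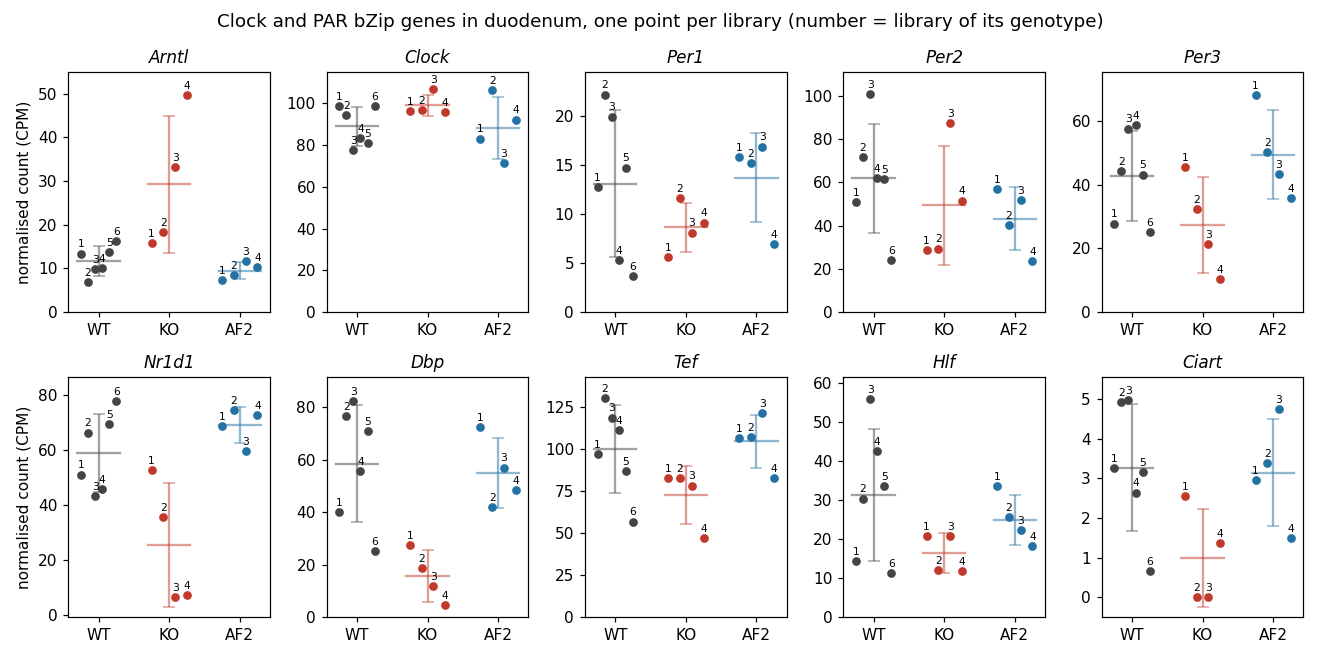
Normalised counts (CPM, linear axis) of the 10 genes in the 14 duodenum libraries; points are libraries with their number, horizontal lines group means and bars 1 SD (6 WT, 4 KO, 4 AF2). KO 3 and KO 4 are the highest libraries for Arntl (33.3 and 49.7) and the lowest for Nr1d1 (6.40 and 7.30).

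**Figure D2:**
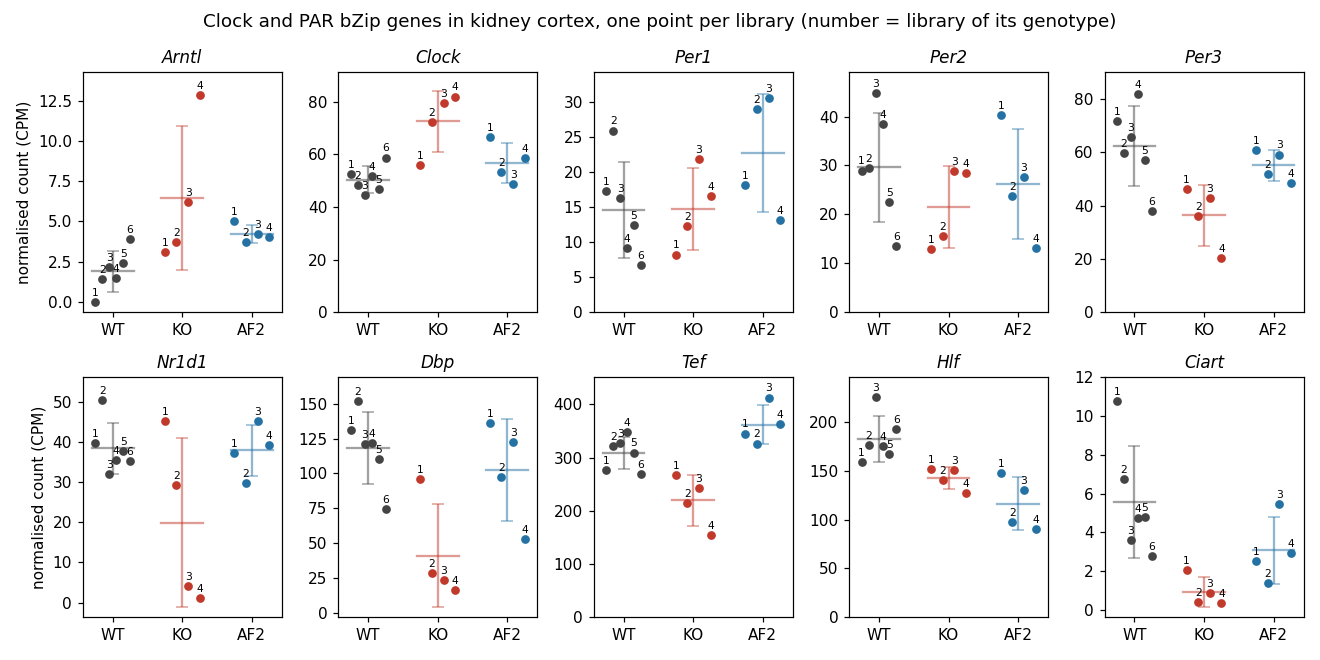
The same genes in the 14 kidney cortex libraries, drawn the same way, with means and 1 SD. All KO libraries are below all WT libraries for Tef, Hlf and Ciart, and all AF2 libraries are below all WT libraries for Hlf.

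Read as a list, KO against WT asked how loss of the receptor changes the clock genes. In kidney 3 of the 10 genes passed, 1 higher (Clock) and 2 lower (Tef and Ciart), against 0.844% of all 13502 genes tested in that contrast (0.289% higher and 0.555% lower). KO and WT did not overlap for 3 genes, Tef, Hlf and Ciart, all lower in KO, against 3.44% of all genes (1.75% lower). At an unadjusted p under 0.05 kidney KO had 2 higher and 5 lower (10.5% of all genes). In duodenum the groups overlapped for all 10 genes (2.2% of all genes did not). In duodenum edgeR called 0 of 10, against 0.0226% of all genes; at an unadjusted p under 0.05 there were 1 higher and 5 lower, against 11.4% of all genes, DESeq2 called 2 (Arntl and Dbp) and limma-voom called 0. The median log2 fold change over the 10 genes was -0.63 in duodenum and -0.48 in kidney, beside values of -0.0036 and -0.0039 over all genes. The 2 activators were higher in KO in both tissues, and of the 8 genes that the loop activates 8 had a lower mean in duodenum and 7 in kidney, Per1 being the exception at 0.02.

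The kidney KO count rested on single libraries. It was 0 without KO 2, without KO 3 or without KO 4, and 1 (Ciart) without WT 2, WT 3, WT 4 or WT 5. It was 5 without WT 6, adding Arntl and Per3, and 6 without KO 1, adding Dbp to these. Clock was also lost without AF2 2 (edgeR, adjusted p = 0.0512) and Tef without AF2 3 (adjusted p = 0.0506), libraries of neither group compared. With KO 3 and KO 4 both left out, 0 of the 10 genes passed in either tissue, and the count over all kidney genes fell from 114 to 15. Within the code run the count was 0 in both tissues, with 25 of all kidney genes called. Without KO 3 and KO 4 the direction held for 9 of 10 genes in kidney, the exception being Per1 (-0.52), and for all 10 in duodenum. Leaving the pair out moved Arntl, Nr1d1, Dbp and Per2 furthest among the 10 genes in both tissues, Per2 away from 0 and the rest toward it, while Hlf stayed at -0.91 and -0.32. The plot of KO fold changes sets the 3 fits side by side.

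**Figure D3:**
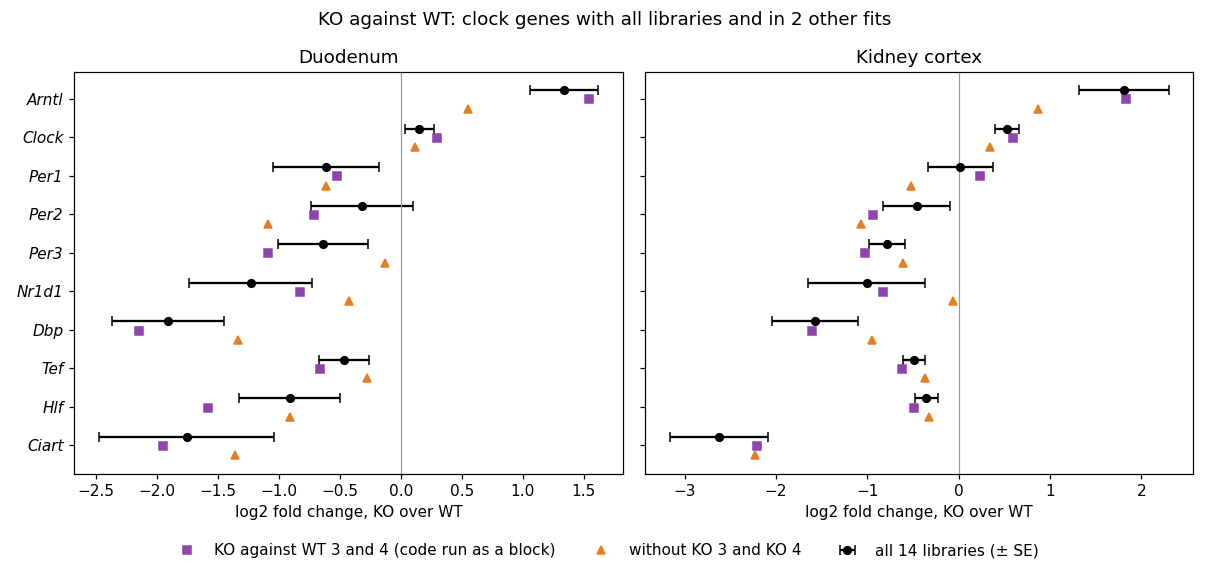
Log2 fold change of KO over WT for the 10 genes in duodenum and kidney cortex. Black points with bars are the fit of all 14 libraries (± SE), squares the fit with code run as a block, and triangles the fit without KO 3 and KO 4; in kidney Nr1d1 moves from -1.01 to -0.06 without that pair, and Ciart from -2.62 to -2.23.

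AF2 libraries were close to WT in most clock genes. In duodenum 0 of 10 were called (edgeR, against 0.0677% of all genes; 0 at an unadjusted p under 0.05, against 11.8%, 0 without overlap, against 2.73%, and 0 by DESeq2 or limma-voom), with log2 fold changes from -0.51 ± 0.421 (Per2) to 0.22 ± 0.465 (Nr1d1). In kidney 1 of 10 was called, Hlf, against 2.71% of all genes (1.63% lower), and it was also the single gene whose groups did not overlap (4.73% of all genes, 2.36% lower). The other 9 kidney values ran from -0.85 ± 0.46 (Ciart, adjusted p = 0.409) to 1.19 ± 0.507 (Arntl). The medians were -0.03 in duodenum and -0.10 in kidney. AF2 against KO shared the KO libraries: 0 of 10 genes were called in duodenum (0.015% of all genes) and 1, Tef, in kidney (0.333% of all genes, 0.2% higher). At an unadjusted p under 0.05 duodenum had 4 genes higher and 1 lower (9.98% of all genes), with 1 call by DESeq2 (Dbp) and none by limma-voom. Kidney AF2 against KO had 4 higher (Per3, Dbp, Tef and Ciart) and 2 lower (Clock and Hlf) at that cut-off. Kidney AF2 against WT had 1 higher (Arntl) and 1 lower (Hlf). The shares of all genes for these 2 kidney contrasts are not given here, so the counts cannot be weighed against them. AF2 and KO were fully apart for 4 genes in duodenum, with Arntl lower and Nr1d1, Dbp and Tef higher in AF2 (6.56% of all genes, 3.44% higher and 3.13% lower), and for Tef and Per3 in kidney, both higher (7.16%, 3.55% higher). Without KO 3 and KO 4 the kidney count was 0, and with code run as a block it was 0.

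The 4 KO libraries differed among themselves in several clock genes. KO 1 had Nr1d1 at 52.7 CPM in duodenum and 45.3 in kidney and Dbp at 27.6 and 95.8, with Per2 low at 28.7 and 12.9. KO 2 had Nr1d1 at 35.5 and 29.2 CPM, a Dbp of 18.8 and 28.4 and a Per2 of 29.4 and 15.6. KO 3 and KO 4 combined the lowest Nr1d1 and Dbp with the highest Arntl, and their Per2 was above that of KO 1 and KO 2 in both tissues. Per1 did not follow Dbp: in kidney it was higher in KO 3 and KO 4 (21.8 and 16.6 CPM) than in KO 1 and KO 2 (8.24 and 12.3), and kidney Per3 of KO 3 (42.8) was above that of KO 2 (36.2). No test addressed the order of the genes. Of the other ROR element genes named above, Cry1 gave the same pair and Nfil3 did not. Nfil3 had 4.27 and 3.19 CPM in duodenum KO 3 and KO 4, within the 0 to 4.56 of the other libraries. In kidney it had 7.38 and 6.43 CPM, within 0.935 to 7.94. Cry1 had 25.2 and 31.9 CPM in duodenum KO 3 and KO 4 against at most 18.8 in the other 12 libraries, and 12.98 and 15.9 in kidney against at most 7.69. Nr1d2, which is regulated much as Nr1d1 is, had 49.5 and 30.6 CPM in duodenum against at least 83.4 elsewhere, and 64.3 and 46.9 in kidney against at least 80.1. Cry1 (0.60 ± 0.301 in duodenum, adjusted p = 0.453) and Nr1d2 (-0.90 ± 0.261, adjusted p = 0.231) did not pass between KO and WT.

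In the textbook order, low Nr1d1 and Dbp with high Arntl and Cry1 belong to the same hours, and high Nr1d1 with low Arntl to the opposite ones. No cut-off for high or low was set. Every WT and AF2 library had more Nr1d1 and less Arntl than KO 3 and KO 4 of its tissue. Kidney Arntl of AF2 1, AF2 3 and AF2 4 (5.04, 4.20 and 4.01 CPM) was still above the highest WT library (3.92). An hour of sampling that differed between libraries cannot be told apart here from a change in the clock, because no time is given and KO libraries share a code run with WT 3 and WT 4 only. WT 3 and WT 4 had Nr1d1 at 43.2 and 45.8 CPM in duodenum, below the 51.0 to 77.8 of the other WT libraries. In kidney they had 32.1 and 35.5 CPM, beside 35.3 to 50.5 in the other WT libraries. Among WT libraries alone, edgeR called 0 of 10 genes between the 3 code runs in either tissue (0.015% and 0.0296% of all genes); at an unadjusted p under 0.05 there were 2 in duodenum, Tef and Hlf, against 9.16% of all genes, and 0 in kidney, against 8.58%.

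**Figure D4:**
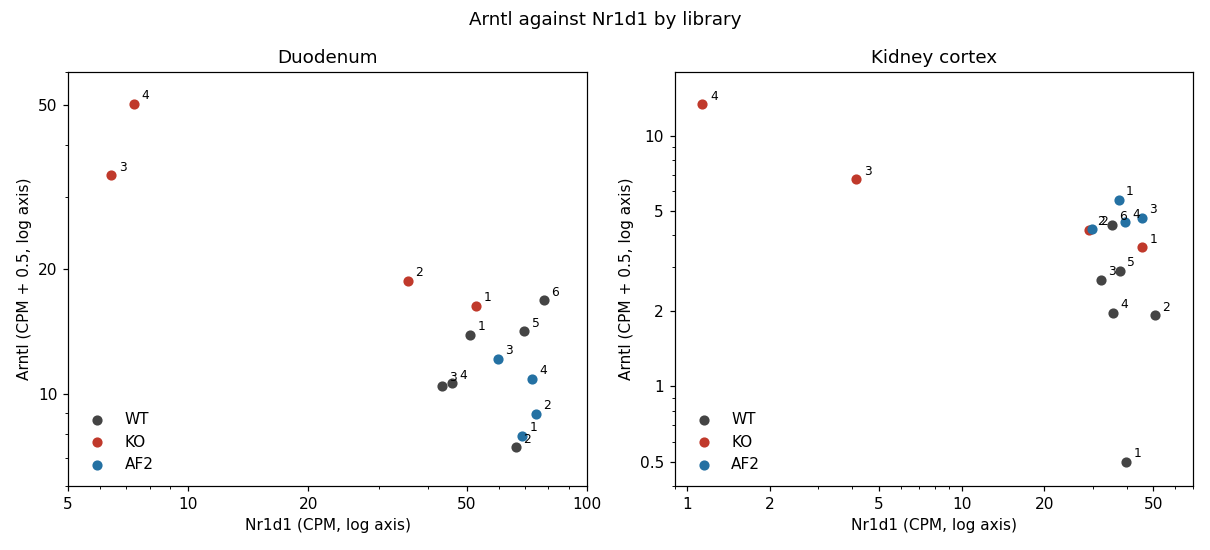
Arntl (CPM + 0.5) against Nr1d1 (CPM), both on log axes, for the 14 libraries of each tissue, coloured by genotype and marked with the library number. KO 3 and KO 4 lie alone at the upper left in both panels, with Nr1d1 at 6.40 and 7.30 CPM in duodenum and 4.13 and 1.13 in kidney. KO 1 lies among the WT and AF2 libraries. KO 2 lies below them in Nr1d1 in both panels (35.5 and 29.2 CPM), and in duodenum above them in Arntl (18.2 CPM).

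Duodenum and kidney libraries with the same genotype and number deviated together in the clock genes. Library codes of such pairs differed by the same number in 14 of 14 pairs, but the labels do not say that a pair came from 1 mouse. With the genotype mean removed, the correlation between tissues over the 14 numbers was highest for Per2 (Pearson r = 0.907, permutation p = 0.00017, adjusted p = 0.0017 over 10 genes; Spearman rho = 0.930, adjusted p = 0.0015). It was 0.824 after leaving out WT 6 and AF2 4, the numbers farthest out. WT 6 and AF2 4 had the lowest Per2 of their genotype in both tissues, at 24.0 and 23.8 CPM in duodenum and 13.4 and 13.1 in kidney. Per1 gave r = 0.801 (permutation p = 0.00174, adjusted p = 0.0087; rho = 0.600, adjusted p = 0.0773), and 0.694 without WT 6 and WT 4.

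Per3 (r = 0.757, permutation p = 0.0129, rho = 0.635), Dbp (r = 0.748, permutation p = 0.0125, rho = 0.609) and Tef (r = 0.717, permutation p = 0.00943, rho = 0.679) also passed by r, each with an adjusted p of 0.0259, and none of them passed by rho (adjusted p = 0.0773, 0.0773 and 0.0618). Their r was 0.536, 0.631 and 0.438 without the 2 outermost numbers. Arntl (r = 0.402), Clock (0.370), Hlf (0.442) and Ciart (0.439) did not pass, with adjusted permutation p-values of 0.137 to 0.209. Nr1d1 had a high r of 0.897 and did not pass either (adjusted permutation p = 0.207). KO 3 and KO 4 form a cluster of their own in Nr1d1, and without them r was 0.340. Over the 11743 genes tested in both tissues the median r was 0.0251, and 0.196% of genes reached 0.8. The count of genes passing without KO 3 and KO 4 was 2 (Per1 and Per2) in place of 5, and with means of genotype and code run removed it was 1 (Per2). It was 3 without WT 6 (Hlf, Per1 and Per2) and 3 without KO 4 (Dbp, Per1 and Per2).

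**Figure D5:**
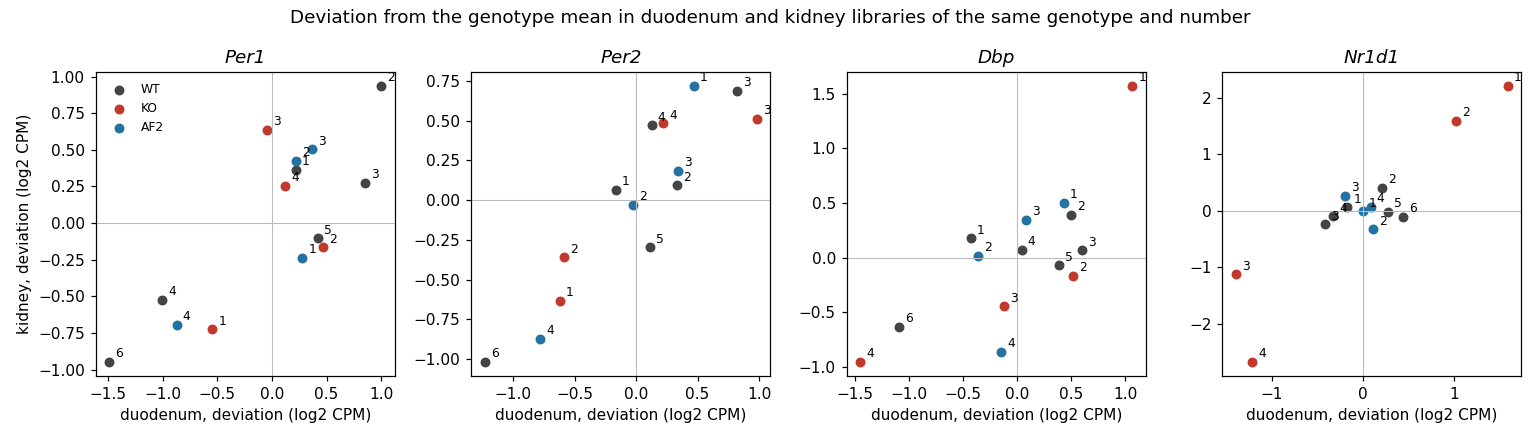
Deviation from the genotype mean (log2 CPM) in duodenum (x) and kidney (y) for Per1, Per2, Dbp and Nr1d1; each point is a genotype and number, labelled with the number. Per2 points lie along a rising line (r = 0.907), and in Nr1d1 the spread comes from the KO libraries, with KO 3 and KO 4 low and KO 1 and KO 2 high in both tissues.

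Within genotypes, 3 of the 9 relations with Arntl passed in duodenum. Its deviations correlated negatively with those of Per3 (Pearson r = -0.862, permutation p = 0.00174), Dbp (r = -0.840, p = 0.00302) and Tef (r = -0.746, p = 0.00201) over 14 libraries, each with an adjusted permutation p of 0.0181 over the 18 relations computed in both tissues. The matching rho values were -0.837, -0.807 and -0.644, with adjusted permutation p-values of 0.0542, 0.0732 and 0.107. Leaving out KO 4 and KO 1, the outermost libraries, gave r of -0.729, -0.683 and -0.660. The other relations, from Nr1d1 (r = -0.653, adjusted permutation p = 0.441) and Hlf (-0.464, 0.209) through Per1 (-0.266) and Ciart (-0.239) to Clock (0.0122) and Per2 (0.0215), did not pass. Over all 13301 other genes tested in duodenum the median r with Arntl was -0.0173 and the 5th percentile -0.507. None passed without KO 3 and KO 4, nor without WT 6, KO 1, KO 2 or KO 4 alone. In kidney 0 of 9 passed; for Nr1d1 r was -0.506 (adjusted permutation p = 0.072) and for Ciart -0.659 (0.0559).

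WT kidney and WT duodenum differed in 7 of the 10 genes in a fit of all 28 libraries, where 69.9% of all 14944 genes were called (34.3% higher and 35.7% lower in kidney), so the share is that of genes at large. That fit took the libraries as independent, and with genotype and number as a block 8 genes were called. Each tissue has its own series of library codes, so tissue and library set cannot be told apart. Per3 was lost in some of the fits that left out 1 WT library (edgeR, adjusted p up to 0.0884) and kept in the others. Per2 was lost without duodenum WT 3. Hlf (2.63 ± 0.266 on the log2 scale), Tef (1.69 ± 0.157), Dbp (1.09 ± 0.382) and Per3 (0.63 ± 0.263, edgeR adjusted p = 0.0366) were higher in kidney. Arntl (-2.59 ± 0.40), Per2 (-0.98 ± 0.354) and Clock (-0.76 ± 0.114) were higher in duodenum, and Per1, Nr1d1 and Ciart did not pass. The Nr1d1 result depended on KO libraries, which share the estimate of spread. With KO 3 and KO 4 out of the fit 8 genes passed, Nr1d1 among them (-0.56, edgeR adjusted p = 0.0022). The 3 PAR bZip genes were thus all higher in kidney, and both activators lower. The KO effect was not called different between tissues for any of the 10 genes (edgeR interaction, 0 called, 0.0535% of all genes), with differences of kidney minus duodenum from -0.82 ± 0.955 (Ciart) to 0.68 ± 0.605 (Per1); at an unadjusted p under 0.05 there was 1, Clock (0.41 ± 0.179), against 7.99% of all genes. Nor did the AF2 effect (0 called, 0.381% of all genes), with 1 at an unadjusted p under 0.05, Arntl (1.51 ± 0.606), against 10.7% of all genes.

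Other genes of the clock, its outputs and the cues that set peripheral clocks were read from lists. Of the other clock genes 16 of 17 were tested in duodenum and 15 in kidney, and 0 were called by edgeR in any contrast. At an unadjusted p under 0.05 KO against WT had 1 higher and 2 lower in duodenum (11.4% of all genes). In kidney there were 0 higher and 4 lower (10.5% of all genes). Among those with the smallest p were Nr1d2 (given above) and Nfil3 (1.55 ± 0.666, adjusted p = 0.362) in duodenum, and Btrc (-0.67 ± 0.206, adjusted p = 0.139), Bhlhe41 (-1.29 ± 0.399, adjusted p = 0.15) and Bhlhe40 (-0.30 ± 0.139, adjusted p = 0.431) in kidney. Npas2, which can stand in for Clock, passed the filter in duodenum only, with 1.58 to 10.7 CPM in WT and 2.03 to 8.67 in KO. Of the widely rhythmic output genes edgeR called 0 of 8 in duodenum and 0 of 9 in kidney. At an unadjusted p under 0.05 in KO, duodenum had 2 higher and 1 lower (11.4% of all genes), and kidney had none (10.5% of all genes). Usp2 came closest, at -0.57 ± 0.185 in duodenum KO (adjusted p = 0.259).

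Glucocorticoid-induced genes gave 1 call in KO against WT, Errfi1, a feedback inhibitor of growth factor receptors, which in kidney KO fell by 0.76 ± 0.157 on the log2 scale (edgeR, adjusted p = 0.0171) and in kidney AF2 fell by 0.78 ± 0.157 (adjusted p = 0.00512). The call in KO was lost without KO 3, without KO 4 and without both (adjusted p = 0.489 without both), and both were lost within code runs (adjusted p = 0.221 and 0.169). Fkbp5, another gene of that list, chosen here after its values were seen, had 49.1 and 35.1 CPM in duodenum KO 3 and KO 4, above the 8.19 to 35.0 of the other libraries. In kidney its 20.4 and 25.3 CPM lay within the 12.4 to 27.8 of the others, and Tsc22d3, of the same list, lay within the range of the others for at least 1 of the pair in each tissue. Fasting genes gave 0 edgeR calls in any contrast of either tissue. At an unadjusted p under 0.05, 3 of 11 were higher in kidney KO (10.5% of all genes passed). In duodenum KO 2 of 8 were higher (11.4% of all genes passed), Angptl4 (1.22 ± 0.436) and Plin2 (0.31 ± 0.142). The smallest p-values of fasting genes in kidney KO were those of Angptl4 (2.00 ± 0.626, adjusted p = 0.223), Cyp4a10 (0.62 ± 0.222, adjusted p = 0.299) and Pdk4 (2.33 ± 0.994, adjusted p = 0.428). Genes of body temperature and heat shock gave 0 edgeR calls, with 2 higher in duodenum KO at an unadjusted p under 0.05 (11.4% of all genes). Of the immediate early genes only Jun in kidney AF2 passed (0.71 ± 0.187, adjusted p = 0.0318). That call was lost within its code run (0.38, adjusted p = 0.633) and in 7 of the 14 fits that left out 1 library. In duodenum AF2 Jun was lower and not called (-0.66 ± 0.253, adjusted p = 0.336). At an unadjusted p under 0.05, 0 of 9 immediate early genes were higher and 3 lower in duodenum KO (11.4% of all genes). The counts were the same in duodenum AF2 (11.8% of all genes).

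The genes most like Dbp over the 14 duodenum libraries (log2 CPM, 12867 genes with an average of at least 1) were Lrrc3 (Pearson r = 0.926), Nr1d2 (0.912), Myo18a (0.910), Spry1 (0.899) and Cldn15 (0.891), and the most opposite was Arntl itself (-0.931). In kidney, over 12954 genes, they were Bhlhe41 (0.919), Myo7a (0.890), Ngfr (0.854), Per3 (0.853) and Ciart (0.848), with Ndrg1 (-0.902) and Clock (-0.861) among the most opposite. Among those most like Arntl in duodenum were Pithd1 (0.870), Cpsf2 (0.851), Pcnt (0.844) and Ddx51 (0.816), and the most opposite were Dbp and Per3 (-0.888). In kidney they were Tchhl1 (0.911), Thoc2l (0.853), Cftr (0.837), Acsl3 (0.835) and Rbm20 (0.834). These are descriptions over libraries that include KO 3 and KO 4, which hold the extreme values of both Dbp and Arntl.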

How the data were processed

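RNA of 28 libraries (14 of duodenum, 14 of kidney cortex) was read with QuantSeq, a 3′-end method, from TRIzol total RNA, per the labels' protocols. The authors deposited 1 table of raw counts per tissue, with sex, age and diet per the file headers. The submitters' processing notes name mm10 and limma 3.34.9; aligner, counter and strand use: not given in the sources used here. All counts were even; tests used counts as deposited, and read numbers are counts divided by 2.

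Each tissue was fitted in edgeR 4.0.16 (R 4.3.3): filterByExpr (minimum count 10), TMM, robust quasi-likelihood F tests, two-sided, genotype as the only term, all 14 libraries, Benjamini-Hochberg over all genes tested (threshold 0.05). Adjusted p-values of genes come from edgeR where no tool is named, and each SE was derived from the fold change and its F statistic. Tissues were compared in 1 fit of 28 libraries. Correlations used log2 CPM (prior count 2) and 100000 permutations within genotype. Code was tested on simulated data.

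Alternatives were RLE scaling, no filter, DESeq2 1.42.0, limma-voom (limma 3.58.1), halved counts, 2 groups only, replicate block, code run as a block, leaving out each library, and 2 added after seeing the data (KO 3 and KO 4 left out, code run means removed). The members and gene lists were chosen with earlier results of these data known. Named genes were all 10 members, Vdr, Cry1, Npas2, Nr1d2 and Nfil3, called list genes with up to 3 uncalled ones of smallest p, and the 5 genes most like Dbp and Arntl. Some genes this rule names are not reported here. Library totals are in the report; they limit Ciart and kidney Arntl most. Gene positions are from GENCODE vM21 (GRCm38, mm10).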

Additional observations from a re-analysis of the deposited data

Results flagged for a closer look

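In 4 of 60 groups of 4 or 6 libraries (10 genes, 3 genotypes, 2 tissues), 1 library lay far from the rest of its group relative to the group's range; chance alone marks about 1 in 20 such groups. In duodenum KO, KO 3 had 107 CPM of Clock, beside 96.8 in the nearest KO library. In duodenum AF2, AF2 4 had 6.93 CPM of Per1, beside 15.2 in the nearest. In duodenum KO, KO 4 had 47.0 CPM of Tef, beside 78.5 in the nearest. In kidney KO, KO 1 had 95.8 CPM of Dbp, beside 28.4 in the nearest. Nr1d1 is not among them, because its KO values fall into pairs.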

How the results depend on the processing

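With RLE scaling no result changed its call or direction. KO 3 and KO 4 left out gave 1 (duodenum KO against WT), 4 (AF2 against WT), 0 (AF2 against KO), 15 (kidney KO against WT) and 21 (kidney AF2 against KO) called genes, 0 clock genes in both kidney contrasts, 2 correlated between tissues and 0 with Arntl. It turned the direction of Cry1 (-0.21 duodenum, -0.59 kidney) and Per1 (-0.52) and Nr1d2 (0.0242) in kidney KO, Per2 in duodenum AF2 against KO (0.58), Arntl in kidney AF2 against KO (0.31), and the correlation with Arntl of duodenum Nr1d1 (0.121) and kidney Tef (0.0949). With code run as a block the called genes were 1, 131 and 5 in duodenum and 25, 121 and 1 in kidney (KO against WT, AF2 against WT, AF2 against KO), with 0 clock genes in all 3 kidney contrasts. Directions turned in AF2 against WT for Per2 (0.033), Nr1d1 (-0.10), Dbp (0.21), Hlf (0.18) and Ciart (0.80) in duodenum and Per2 (0.53), Per3 (0.20), Nr1d1 (0.058) and Dbp (0.14) in kidney, and for Per2 in duodenum AF2 against KO (0.75). The run-mean correlations passed for 1 gene between tissues and 1 with Arntl (Per3).

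Within tissues, replicate numbers were not taken to pair the genotypes: over all genes, deviations of libraries with the same number correlated from -0.199 to 0.171, with values under 0.1 in each pair of genotypes. Duodenum and kidney libraries with the same genotype and number correlated from -0.0781 to 0.102 over all genes, and 8 of 14 correlated best with their own number, a hint from the data and not the design; single clock genes correlated far more, as given in the report. The replicate block gave 1 called gene in duodenum AF2 against WT and 14 in AF2 against KO, with 1 clock gene (Arntl) there, and turned Per1 (-0.0725), Per3 (-0.00999) and Tef (-0.14) in duodenum AF2 against WT, Per1 in kidney KO against WT (-0.17) and Nr1d1 in kidney AF2 against WT (0.036); the kidney KO call count of clock genes was 2.

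No filter gave 215, 240 and 106 called genes in duodenum and 252, 590 and 193 in kidney in the same order, with 2 clock genes (duodenum KO), 1 (duodenum AF2 against KO), 5 (kidney KO) and 2 (kidney AF2 against KO), and 1 between WT code runs in each tissue (Hlf, Per2). DESeq2 called 100, 152 and 79 genes in duodenum and 211 and 162 in kidney (KO against WT, AF2 against KO), with 2 clock genes in duodenum KO, 1 in duodenum AF2 against KO and 5 in kidney KO. limma-voom called 5 clock genes in kidney KO and 2 in kidney AF2 against KO. Halved counts called 8 genes in duodenum KO and 5 clock genes in kidney KO, and the 2 groups alone called 177 genes in kidney KO and 50 genes, with 1 clock gene (Arntl), in duodenum AF2 against KO. The causes were not tested.

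Leaving out each library in turn gave 1 to 229, 0 to 217 and 1 to 4 called genes in duodenum and 38 to 206, 294 to 365 and 22 to 78 in kidney, with 0 to 1, 0 to 0 and 0 to 1 clock genes in duodenum and 0 to 6, 1 to 1 and 1 to 2 in kidney. It gave 6 to 7 between WT tissues, 3 to 6 correlated between tissues, and 0 to 3 and 0 to 1 correlated with Arntl in duodenum and kidney. Signs turned within these ranges for duodenum AF2 against WT in Clock (-0.10 to 0.0869), Per1 (-0.14 to 0.31), Dbp (-0.25 to 0.0327), Tef (-0.059 to 0.16) and Ciart (-0.31 to 0.17), for Per2 in AF2 against KO (-0.38 to 0.25 in duodenum, -0.0036 to 0.48 in kidney), for kidney Per1 in KO (-0.26 to 0.27), kidney AF2 Per2 (-0.48 to 0.0239) and Nr1d1 (-0.12 to 0.0759), for Per1 between WT tissues (-0.0376 to 0.50) and for kidney Tef with Arntl (-0.784 to 0.103). Precision is set by reads: Ciart had at most 25 reads in any kidney library and kidney Arntl at most 34.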
